A study of Drosophila melanogaster with 2 samples.

Results

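Png, plu, gnu, smg, pum, cup, me31B and tral act together when a fly egg is activated and its maternal RNA is silenced and then removed. These 8 genes, and zld, were found in the RNA sequencing of 2 pooled embryo collections, where they are 9 of 17301 measured genes. All 8 passed the filter of 1 FPKM and were above it in both libraries, where FPKM counts fragments relative to transcript length and library depth, and zld is listed under its older symbol vfl. They were taken by symbol, with no threshold on their values.

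Each library was made from the poly(A) fraction of embryos collected from 0 to 16 h after laying, from flies kept at 25 °C, with 1 library per group. In the library labelled knockdown, the driver P{en2.4-GAL4}e22c was combined with P{TRiP.JF02125}attP2, an RNA interference construct against Lim3. In the control library the same driver was combined with P{y+t7.7=CaryP}attP2, which names the same attP2 landing site and carries no interference construct. The genotypes of both groups also include P{tGPH}4 in 1 copy and the alleles y1 w*, alone or over y1 v1. A pool spans early cleavage to late organ formation, so a lower value can mean fewer embryos at the stage that holds the RNA or less RNA per embryo, and these cannot be told apart. Lim3 itself stood at 18.5 FPKM in the knockdown-labelled library against 5.81 FPKM in the control library, a ratio of 3.17 (95% counting interval 2.82 to 3.58), which goes against the label. Whether the labels are exchanged, which would turn every direction given here, or whether RNA of the construct was counted in Lim3, was not tested. No difference has a replicate check, and a group value stands for a single pool.

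Maternal RNA drives the fly embryo before its own genome is active. At egg activation the Pan Gu kinase, formed by the products of png, plu and gnu, changes the translation of many stored RNAs, among them those of cyclin B and smg. Smaug (smg) and Pumilio (pum) bind RNAs directly and recruit repressors and deadenylases, while Cup, ME31B and Trailer hitch (tral) form the particle that keeps bound RNAs silent. Zelda (zld) then opens the zygotic genome for transcription.

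The 8 genes were lower in the library labelled knockdown by 0.18 to 0.49 on the log2 scale of FPKM with 1 added, except that only 3 of 8 (plu, gnu and me31B) stayed below 0 when the libraries were rescaled to an equal FPKM sum. Their median log2 difference was -0.22, against -0.04 over all 10576 genes that reached 1 FPKM in at least 1 library. That 8 of 8 were below 0 is to be read against 56.5% of those genes. For genes of at least 5 FPKM in each library the median was -0.08. Of these, 70.1% below 1000 nt, 69.5% from 1000 to 2000 nt, 54.4% from 2000 to 4000 nt and 46.1% above were below 0. No member was 2-fold apart on the log2 scale of FPKM with 1 added, the size rule used here. It was met by 2.39% of the 10576 genes in either direction and 1.37% in the lower. Rescaling multiplies a whole library by the same factor, so it moved the median of all tested genes too, from -0.04 to 0.21. That 8 of 8 members lay below that median on either scale is therefore no separate check. After rescaling, the counting interval of the ratio lay below 1 for plu and me31B, included 1 for png, gnu and cup, and lay above 1 for smg, pum and tral. As deposited, 108 genes were past the size rule as higher and 145 as lower, and after rescaling 168 and 109 genes were.

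**Figure D1:**
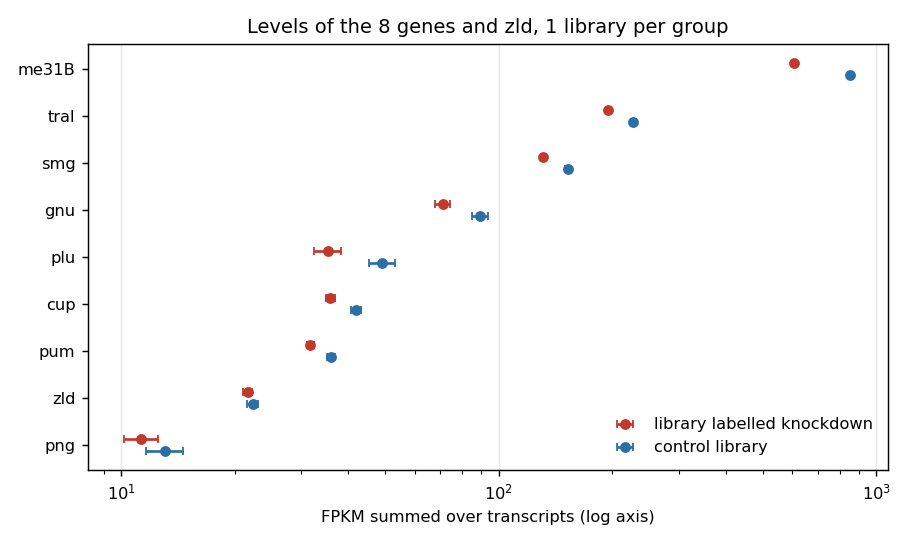
FPKM summed over transcripts (log axis) for the 8 genes and zld in each library, with 95% counting intervals. Points run from 11.3 FPKM for png to 850 FPKM for me31B, and in each row the control library is the higher.

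The level of each gene is given per transcript length, so levels can be set beside each other. In both libraries me31B was the most abundant, followed by tral, smg and gnu, and png was the least abundant, below zld. Only plu and cup traded places. In the library labelled knockdown plu was at 0.984 times the level of cup (0.902 to 1.07), within counting error, and in the control library at 1.17 times (1.08 to 1.28). Transcript lengths were 616 nt for plu and 4005 nt, weighted over transcripts, for cup. Differences between the libraries followed length, as given below, so this exchange is not free of it. Intervals of ratios are exact binomial and those of single levels exact Poisson 95% intervals, from estimated fragments. They cover counting error only, not differences between collections or library preparations.

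The Pan Gu kinase genes came first in the order of action. Png (FBgn0000826), the catalytic subunit, lies on the X chromosome from 1250521 to 1251634 in Release 5 coordinates, and has 1 transcript of 1114 nt. Its level was 11.3 FPKM in the knockdown-labelled library against 13.0 FPKM in the control library, a ratio of 0.867 (0.745 to 1.01) on 379 and 318 fragments. This interval includes 1, so no difference was detectable at this depth.

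Plu (FBgn0003114), a small ankyrin-repeat subunit of 174 residues, lies on 2R from 16150463 to 16151189 with 1 transcript of 616 nt. It stood at 35.3 FPKM and 49.2 FPKM in the same order, a ratio of 0.717 (0.639 to 0.804). Gnu (FBgn0001120), the subunit that activates the kinase, lies on 3L from 14795480 to 14796460 with 1 transcript of 923 nt. Its values were 71.1 FPKM and 89.2 FPKM, a ratio of 0.797 (0.747 to 0.851). As deposited both were lower in the library labelled knockdown beyond counting error, by log2 differences of -0.47 and -0.32. With an equal FPKM sum the ratio of plu was 0.871 (0.776 to 0.977), and that of gnu 0.968 (0.907 to 1.03), an interval that includes 1.

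The RNAs of the 3 subunits were unequal within each library. Gnu was at 6.28 times the level of png (5.63 to 7.03) in the knockdown-labelled library against 6.83 times (6.06 to 7.73) in the control library. The ratio of plu to png was 3.12 (2.74 to 3.56) and 3.77 (3.28 to 4.33). Such ratios within a library do not depend on how the libraries are scaled, though they are not free of transcript length. The intervals of the libraries overlapped for both. Overlap does not show that the ratios are alike, and whether they differ beyond counting error was not tested.

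Smg (FBgn0016070) encodes the SAM-domain protein that binds hairpins in maternal RNAs and recruits the CCR4-NOT deadenylase. It lies on 3L from 8983417 to 8991089. Its 5 transcripts summed to 130.9 FPKM in the knockdown-labelled library against 152 FPKM in the control library, a ratio of 0.859 (0.842 to 0.877). The lower sum lay in a single transcript. FBtr0290104, whose first exon starts 1740 nt downstream of the most distal start, was at 37.8 FPKM and 61.1 FPKM, a ratio of 0.618 (0.597 to 0.641). Its difference alone was 109% of the gene's, since other transcripts lay the other way.

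The remaining smg transcripts were level or higher. FBtr0076550, the most abundant, was at 69.1 FPKM and 69.9 FPKM, a ratio of 0.987 (0.959 to 1.02). FBtr0076549, which uses the most distal first exon, was at 14.6 FPKM and 13.4 FPKM, a ratio of 1.09 (1.02 to 1.17). FBtr0290103, which encodes 1109 residues in place of 999, was at 8.45 FPKM and 6.96 FPKM, a ratio of 1.21 (1.11 to 1.33). FBtr0076551 stayed below 1 FPKM in both. As a share of smg, FBtr0290104 was 28.9% in the knockdown-labelled library against 40.1% in the control library, and FBtr0076550 was 52.8% and 45.9%. Transcripts of a gene share most of their exons, and the software divided the shared fragments, so transcript values are estimates whose intervals leave out that error.

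Pum (FBgn0003165) encodes the Puf-domain repressor that acts with Nanos and Brat. It is a long gene, on 3R from 4892065 to 5063404. Its 8 transcripts summed to 31.7 FPKM in the knockdown-labelled library against 36.0 FPKM in the control library, a ratio of 0.882 (0.851 to 0.913). Beneath this small difference the transcripts diverged in both directions.

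The pum transcripts differ in where they start, where they end and how long a protein they encode. The 4 that start near the distal end of the gene encode 1533 residues, and summed to 17.5 FPKM in the knockdown-labelled library against 21.8 FPKM in the control library (ratio 0.802, 0.767 to 0.840). The 3 from the start 79732 nt further downstream, which encode 921 to 935 residues, summed to 5.58 FPKM and 8.74 FPKM (0.639, 0.585 to 0.697). FBtr0081993, from a start 10842 nt into the gene, encodes 1185 residues and lay the other way, at 8.66 FPKM and 5.45 FPKM (1.59, 1.47 to 1.71). Its share of pum was 27.3% and 15.2%.

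The 3' ends of pum were also divided. Transcripts with the shortest 3' UTR, 1191 nt with the stop codon, summed to 20.7 FPKM in the knockdown-labelled library against 28.7 FPKM in the control library, a ratio of 0.719 (0.689 to 0.751). Those with UTRs of 3370 nt or 4605 nt summed to 11.1 FPKM and 7.27 FPKM, a ratio of 1.52 (1.43 to 1.62). FBtr0333668, which joins the most downstream start to the longest UTR, was at 1.5 FPKM and 0.589 FPKM, whereas FBtr0333667, with the same UTR and a distal start, was at 0.909 FPKM and 1.23 FPKM. The longer ends made up 34.9% of pum in the knockdown-labelled library against 20.2% in the control library. Of this change of 14.7 points, 12.1 lay with FBtr0081993, the transcript with the UTR of 3370 nt. The shifts by start and by end are therefore not separate observations.

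**Figure D2:**
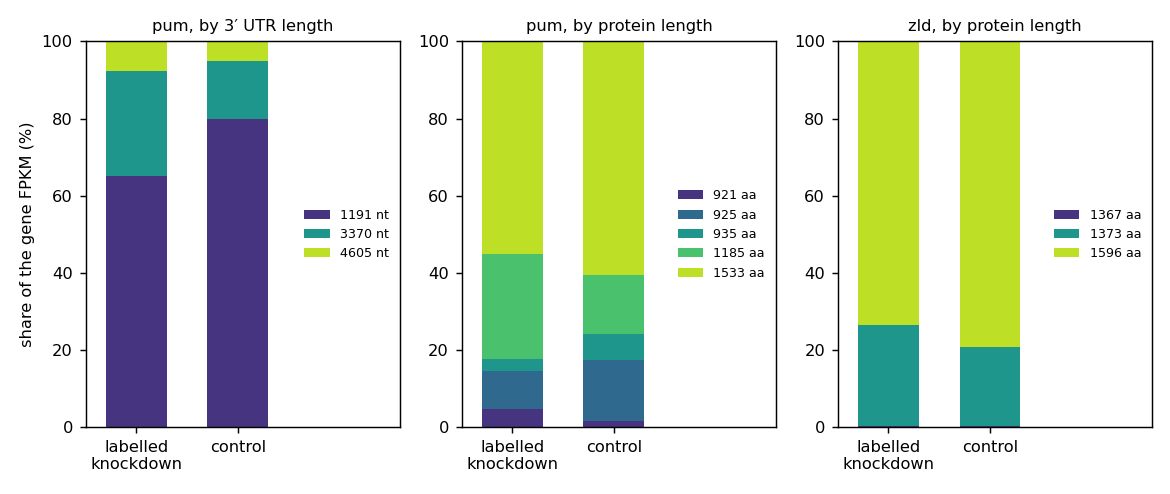
Share (%) of each gene's FPKM in transcript classes of pum, by 3' UTR length (nt, stop codon included) and protein length (residues), and of zld by protein length, in each library. The longer pum ends take 34.9% in the knockdown-labelled library against 20.2% in the control library, and the 1373-residue zld form takes 26.3% and 20.5%.

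Many other genes also held more of their longer ends in the library labelled knockdown. Among 992 genes of at least 10 FPKM with annotated 3' ends at least 500 nt apart, the share of transcripts past the nearest end was up by 10 points or more in 19.2%. It was down by 10 points or more in 0.403%. The median gene moved by 2.27 points. Pum, at 14.7 points, lay above 90.5% of these genes, whereas tral moved by 1.25 points. What lies behind the difference at so many genes was not tested.

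Cup (FBgn0000392) binds the cap-binding protein eIF4E and is recruited by Smaug. It is on 2L, from 6663664 to 6674780 in Release 6 coordinates. Its 2 transcripts encode the same protein of 1117 residues and summed to 35.8 FPKM in the knockdown-labelled library against 41.9 FPKM in the control library, a ratio of 0.855 (0.820 to 0.892). FBtr0290322 held 99.0% and 99.3% of this. Exons of cup share 441 nt on the same strand with CG34310, which was at 93.7 FPKM and 111 FPKM. They also share 99 nt with cort on the other strand. The value of cup therefore depends on how those fragments were divided.

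Me31B (FBgn0004419), a DEAD-box RNA helicase, lies on 2L from 10239341 to 10242172. It had the lowest summed log2 difference with plu, the pair lying within counting error of each other, and was at 605 FPKM in the knockdown-labelled library against 850 FPKM in the control library. The ratio was 0.713 (0.702 to 0.724) and the log2 difference -0.49, lower than all but 5.68% of tested genes. Its level was above that of 98.1% and 98.4% of tested genes in these libraries.

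Both me31B transcripts were lower, but not alike. FBtr0079975, which encodes 459 residues, was at 544 FPKM and 685 FPKM, a ratio of 0.794 (0.781 to 0.808). FBtr0079976 starts 598 nt further downstream with its own first exon and encodes 428 residues. It was at 61.4 FPKM and 165 FPKM, a ratio of 0.373 (0.357 to 0.389), and held 10.1% and 19.4% of the gene's sum. Its log2 difference was -1.41. Of 29 transcripts of the 8 genes, 25 reached 1 FPKM, and it was the only one of these past the size rule. Over all genes 7.31% of transcripts at that level passed the rule in either direction and 3.95% in the lower. FBtr0079976 stayed past the rule under each of 4 other scalings or pseudocounts. The largest rescaling shifts log2 values by 0.28, too little to bring it within the rule, so this is no separate check. With the most abundant transcript of each gene alone, the log2 difference of me31B was -0.33, behind plu at -0.47 and pum at -0.34. FBtr0079976 carried 42.3% of the gene's difference, on 3065 and 5979 fragments.

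**Figure D3:**
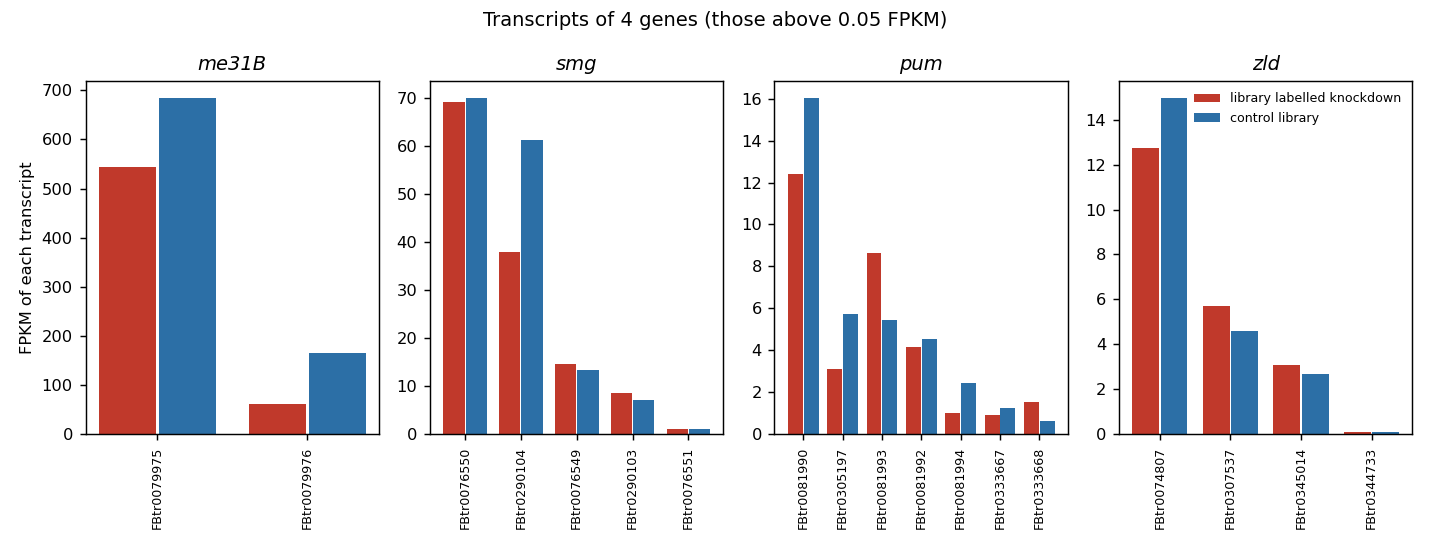
FPKM of single transcripts of me31B, smg, pum and zld (those above 0.05 FPKM), with a red bar for the library labelled knockdown and a blue bar for the control library. FBtr0079976 of me31B stands at 61.4 and 165 FPKM and FBtr0290104 of smg at 37.8 and 61.1 FPKM, while FBtr0081993 of pum is the reverse, at 8.66 and 5.45 FPKM.

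Tral (FBgn0041775), an LSm-domain protein of the same particle, lies on 3L from 12508159 to 12514054. Its 9 transcripts summed to 195 FPKM in the knockdown-labelled library against 228 FPKM in the control library, a ratio of 0.856 (0.839 to 0.873). Their makeup was nearly the same in both. FBtr0332636, the most abundant, held 43.4% and 43.5%, and the 2 transcripts with the long 3' UTR of 1806 nt held 37.8% and 36.6%. No share moved by more than 1.92 points.

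Over the 5 members with several transcripts, the largest change of share within a gene was 11.2 points for smg, 12.1 for pum, 9.25 for me31B, 1.92 for tral and 0.336 for cup. The 2 past 10 points, smg and pum, are to be read against 24.0% of 4009 such genes at 10 FPKM or more.

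The particle genes kept some ratios and lost others. The level of tral was 5.43 times that of cup in both libraries, with intervals of 5.27 to 5.61 and 5.25 to 5.62. Smg was at 0.672 times tral (0.659 to 0.685) in the knockdown-labelled library against 0.670 times (0.656 to 0.684) in the control library. In contrast, me31B was at 3.11 times tral (3.06 to 3.16) and 3.74 times (3.67 to 3.8), and 16.9 times cup (16.4 to 17.4) and 20.3 times (19.6 to 21.0). The me31B intervals of the libraries did not overlap, and these ratios are free of any scaling of a whole library. They are not free of transcript length, which differences between the libraries also followed. Lengths weighted over transcripts were 1684 nt for me31B, 3367 nt for tral and 4005 nt for cup. Against genes of like length their log2 differences were -0.38, -0.19 and -0.24.

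**Figure D4:**
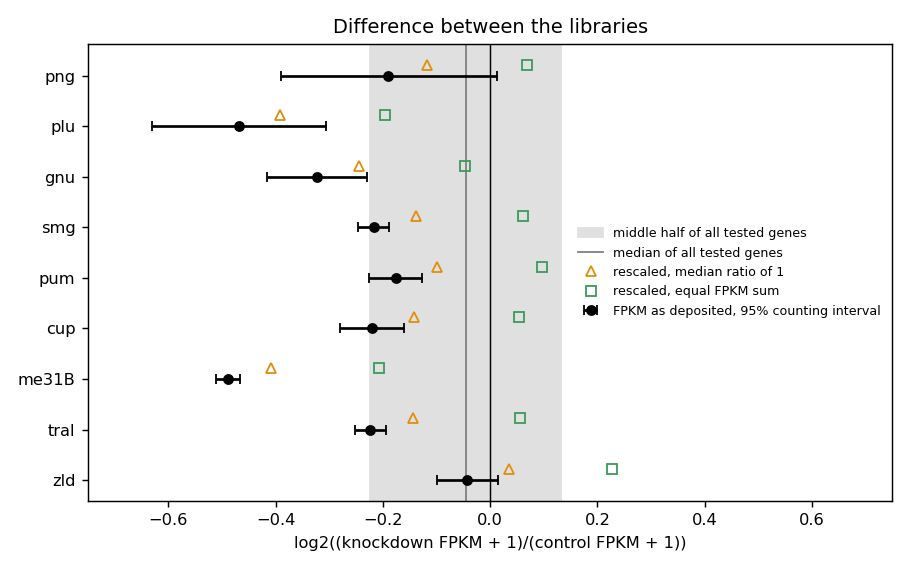
Log2 difference (FPKM with 1 added, library labelled knockdown over control) of each gene with its 95% counting interval, beside 2 rescaled values, over the interquartile range of all tested genes (-0.23 to 0.13, grey). As deposited the 8 genes lie from -0.49 to -0.18 and zld at -0.04, and after rescaling to an equal sum plu, gnu and me31B alone lie below 0.

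Zld (FBgn0259789, on the X from 19660498 to 19677581) encodes the zinc-finger activator of the early genome. It was nearly level, at 21.6 FPKM in the knockdown-labelled library against 22.3 FPKM in the control library (ratio 0.970, 0.930 to 1.01), and its log2 difference of -0.04 became 0.23 after rescaling to an equal sum. Its transcripts for the protein of 1596 residues summed to 15.9 FPKM and 17.7 FPKM (0.898, 0.856 to 0.942). The form of 1373 residues, from a transcript that ends 9522 nt beyond the others, was at 5.69 FPKM and 4.56 FPKM (1.25, 1.15 to 1.36). Relative to tral, zld was at 0.111 (0.108 to 0.114) and 0.0980 (0.0947 to 0.101), intervals that do not overlap. Transcripts of zld are longer than those of tral, and this ratio is not free of the length dependence given next.

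Differences also followed transcript length across the libraries. For genes of at least 5 FPKM in each library the median log2 difference was -0.18 below 1000 nt, -0.11 from 1000 to 2000 nt, -0.03 from 2000 to 4000 nt and 0.02 above. The 3 members with the largest differences, me31B, plu and gnu, have transcripts under 2000 nt, but so does png, at -0.19. Against the median of genes of like length me31B was lower by a log2 difference of -0.38, plu by -0.29, and smg, cup, pum and tral by -0.24, -0.24, -0.20 and -0.19. Gnu was at -0.14, png at -0.08 and zld at -0.06. In this comparison, added after the values were seen, 4.91% of genes of like length were lower than me31B, and 36.8% lower than png.

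Genes that work beside the 8 lay on both sides of 0, as all tested genes did, of which 56.5% were below 0. Of the 14 tested genes of the calcium signal and of meiotic exit at activation, 7 were below 0 and 7 above, with a median of 0.03. Wisp, the poly(A) polymerase that lengthens maternal tails at activation, was at 36.1 FPKM in the knockdown-labelled library against 52.5 FPKM in the control library (log2 -0.53). Fzy, a co-activator of the anaphase-promoting complex, was at 88.5 FPKM and 123 FPKM (-0.47). Cort, its female meiotic relative, was at 5.89 FPKM and 4.55 FPKM (0.31), but overlaps cup. Sra, which regulates calcineurin in activation, was at 25.8 FPKM and 29.8 FPKM (-0.20), and calmodulin (Cam) at 209 FPKM and 165 FPKM (0.33).

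Genes of the CCR4-NOT deadenylase, which Smaug recruits, lay on both sides of 0. Of 9 genes 7 were below 0, against 56.5% of all tested genes. The list median of -0.05 became 0.22 with an equal FPKM sum, where that of all tested genes became 0.21. The catalytic subunit gene twin stood at 62.0 FPKM in the library labelled knockdown against 62.8 FPKM (-0.02), and Pop2 at 101 FPKM against 105.5 FPKM (-0.06). The scaffold gene Not1 was at 26.5 FPKM and 30.4 FPKM (-0.19). The subunit gene Rga (Not2) was at 45.1 FPKM and 56.9 FPKM (-0.33), a ratio of 0.793 (0.758 to 0.829). Not10 was at 15.6 FPKM and 18.1 FPKM (-0.20), and Not11 at 31.9 FPKM and 27.2 FPKM (0.22).

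Partners of the repressor particle and of decapping were split, with 7 of 15 below 0, against 56.5% of all tested genes, and a median of 0.02. The poly(A)-binding protein gene pAbp was at 367 FPKM in the knockdown-labelled library against 483 FPKM in the control library (-0.39), and the decapping activator gene Dcp1 at 32.9 FPKM and 44.9 FPKM (-0.44). The cap-binding protein gene eIF-4E, the partner of Cup, was at 347 FPKM and 336 FPKM (0.05). Also near level were Dcp2 at 18.9 FPKM and 18.9 FPKM (-0.0005) and Patr-1 at 29.1 FPKM and 29.9 FPKM (-0.04). So were Edc3 at 15.3 FPKM and 14.6 FPKM (0.06) and 4EHP at 30.6 FPKM and 30.1 FPKM (0.02). Orb, a translational activator in the germ line, was at 8.73 FPKM and 5.91 FPKM (0.49), and exu, which helps place maternal RNAs, at 41.0 FPKM and 33.1 FPKM (0.30). Dcp1 and orb had the lowest and highest log2 differences of this list.

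Of the 10 RNA-binding regulators, 6 were below 0, against 56.5% of all tested genes, with a median of -0.06. Brat and nos, whose products act with Pumilio, lay apart: brat was at 47.7 FPKM in the knockdown-labelled library against 55.7 FPKM in the control library (-0.22), and nos at 39.4 FPKM and 33.5 FPKM (0.23). Bam, a germ-line differentiation factor, was at 11.9 FPKM and 19.1 FPKM (-0.65), the lowest log2 difference of the pathway lists. Of the 7 genes of the CTLH ubiquitin ligase, which removes Cup, ME31B and Trailer hitch protein, 5 were below 0, with a median of -0.10. The 4 genome activation factors, zld among them, had a median of -0.01, and Trl, the GAGA factor gene, was at 64.7 FPKM and 65.2 FPKM.

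Genes with maternal RNAs under these regulators differed among themselves. The pools span 0 to 16 h, so maternal RNA and RNA made later from the same gene cannot be told apart. Of 10 genes 7 were below 0, against 56.5% of all tested genes, with a median of -0.09. CycB, whose translation needs Pan Gu, was at 376 FPKM in the knockdown-labelled library against 510 FPKM in the control library (-0.44). Hsp83, a target of Smaug, was at 441 FPKM and 400 FPKM (0.14), and bcd, which sets the anterior axis, at 24.5 FPKM and 36.2 FPKM (-0.54). None of the genes in these lists met the size rule. After rescaling to an equal sum the medians of all 7 pathway lists were above 0, as was the median of all tested genes, at 0.21. Those of the CTLH genes (0.17), these maternal RNAs (0.19) and the RNA-binding regulators (0.20) lay below 0.21, and the others above.

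**Figure D5:**
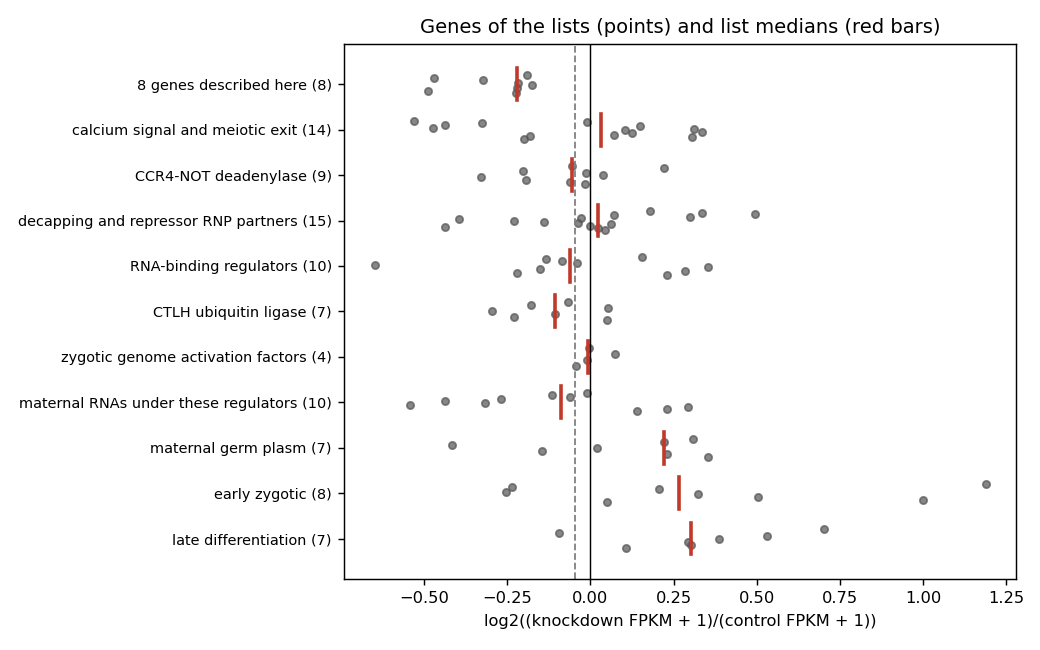
Log2 difference (library labelled knockdown over control) of each tested gene in the 8-gene group and in each list, with the number of genes, the list median (red bar) and the median of all tested genes (dashed). The 8 genes have a median of -0.22, the early zygotic list 0.27 and the late differentiation list 0.30.

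Markers of embryo stage and of other tissues were measured beside these genes, and their part in the results was not tested. The genes listed as early zygotic summed to 279 FPKM in the knockdown-labelled library against 196 FPKM in the control library. Of these, 6 of 8 were above 0, where 43.5% of all tested genes were, with a median of 0.27 and 1 past the size rule. That gene was halo, at 71.5 FPKM and 30.8 FPKM, and 1.02% of all tested genes were past the rule in that direction. Late differentiation genes of muscle, cuticle and neurons summed to 1924 FPKM and 1553 FPKM, with 6 of 7 above 0 and a median of 0.30. The exception was the neuronal gene elav, at 15.2 FPKM and 16.3 FPKM (-0.09), whereas nrv3 was at 10.1 FPKM and 5.82 FPKM (0.70). Germ plasm genes summed to 313 FPKM and 309 FPKM, with 2 of 7 below 0, and a median of 0.22. Eggshell genes, which mark follicle cells, summed to 2.23 FPKM and 3.52 FPKM over 10 genes, with 1 and 3 listed at 0, and the 3 yolk protein genes to 0.959 FPKM and 0.809 FPKM. The markers of ovary tissue were at or near 0 in both libraries.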

How the data were processed

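RNA of 2 embryo pools was analysed, 1 library per group, grouped by the sample titles. The authors deposited FPKM values, 1 per transcript, per the file headers. TopHat 0.6 and Cuffdiff are named in the submitters' processing notes; the sources used here do not give settings, strand use, build or annotation. The scaffold names are those of Release 5, and spans in it were printed where they match the annotated gene length, which leaves out cup. Libraries were directional with a gel cut of 250 to 400 bp, per the labels' protocols.

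FPKM was summed by gene identifier with Python 3.11.15 and pandas 2.3.3. The 365 transcripts without an identifier, 0.0227% and 0.0246% of the sums, were left out. Exons and protein lengths came from Ensembl release 115 (Release 6). All 34 transcripts of the 9 genes have the annotated length. Differences are log2 of FPKM with 1 added, which understates low genes. The size rule, a log2 difference of 1, was applied to genes reaching 1 FPKM in either library.

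Depth was estimated from the smallest values of single-transcript genes: FPKM times length less 120 nt peaks at 29.7 and 40.8, the value of 1 fragment, or about 33725882 and 24518253 fragments. The procedure was tested on simulated data. Intervals (scipy 1.17.1) rest on this estimate.

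The genes named are the 8, zld and list members taken by role. Genes with the lowest or highest log2 difference of a list, such as wisp, Rga, Dcp1, orb and bam, are among them. Many genes nearer to their list median are not named, so the named genes overstate the spread. CG34310, and the transcripts printed, were chosen after their values were seen. Members and lists were chosen with earlier results of these data known. Alternatives were the pseudocount, the filter, rescaling and the most abundant transcript. No p-value is possible with 1 library per group.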

Additional observations from a re-analysis of the deposited data

How the results depend on the processing

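The direction of the 8 genes depended on the scaling. The number below 0 was 8 under the other pseudocounts, a median ratio of 1, a sum without ribosomal protein genes, the most abundant transcript and comparison with genes of like length (the last added after the data were seen), but 3 with an equal FPKM sum. A pseudocount cannot turn the sign of a difference, so those settings are no check on direction. Nor is the most abundant transcript for png, plu and gnu, which have 1 transcript each. Their median was 0.055 with an equal sum, -0.14 with a median ratio of 1 and -0.084 with a sum without ribosomal protein genes. The sign of zld turned under all 3 rescalings (0.23, 0.03 and 0.09). Genes past the size rule numbered 52 higher and 90 lower with a pseudocount of 5, and 61 and 77 at 200 nt or more. They numbered 177 higher and 210 lower with a pseudocount of 0.1, and 168 and 109 with an equal sum. The 2 transcripts of me31B and FBtr0290104 of smg kept their direction under 4 settings added after the data were seen, but with an equal sum FBtr0079975 was at -0.05, FBtr0079976 at -1.13 and FBtr0290104 at -0.40. No paired analysis was possible because each group has 1 library. The rescaled intervals were also added after the data were seen. Intervals rest on a depth estimated from the values, and with plain lengths the interval of png was 0.743 to 1.01.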
